A study of Mus musculus with 4 samples.

Results

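The 9 myelin genes Mbp, Mobp, Mal, Mag, Mog, Opalin, Cldn11, Cnp and Myrf were followed in 4 snRNA-seq libraries of mouse thalamus, in which RNA molecules are counted nucleus by nucleus through their unique molecular identifiers (UMIs). They were chosen by symbol, as 9 of the 40091 genes listed over the libraries, and each symbol matched a single Ensembl identifier. All the mice were wild-type C57BL6 animals aged 7 to 8 weeks. The NS group was given saline, and the COL group was given 0.01 U of type IV collagenase (Coll IV) in 10 nl. Both were delivered to VPM and VPL on the right side, the somatosensory relay nuclei of the thalamus, where the enzyme opens vessel walls and causes haemorrhage. Each library pooled tissue from 3 mice taken 7 days after the injection, with 2 libraries per group, so the mice of a library could not be told apart and p-values measure the spread between pools. With 2 libraries against 2, an exact permutation test of a single value gives no p below 0.333.

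Myelin is the lipid-rich membrane that oligodendrocytes wrap around axons, and its genes are transcribed by mature oligodendrocytes. Mbp encodes the basic protein that holds the layers of compact myelin together, Mobp encodes another basic protein of compact myelin, and Mal encodes a small membrane protein of lipid-rich domains. Mag encodes an adhesion molecule facing the axon, Mog an antigen of the outermost layer, Opalin a transmembrane glycoprotein of oligodendrocytes, and Cldn11 the claudin of the tight junctions within the sheath. Cnp encodes an enzyme of the non-compact, cytoplasm-filled parts of the sheath. Myrf encodes a membrane-bound transcription factor, which is cleaved and then switches on many of the others.

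Of 32291 nuclei kept, 8847 were taken as oligodendrocytes by Prr5l, St18 and Aspa, which are not among the 9 genes. Levels are given as CPM, a gene's UMIs scaled to a common total of all UMIs of the class in that library. The gate genes chose these nuclei, so their levels are a description without a test: Aspa was at 944 and 1027 CPM in NS and 505 and 595 CPM in COL, and Prr5l at 2920 and 2872 CPM in NS and 3747 and 3743 CPM in COL. The nuclei numbered 2119 and 3512 in NS replicates 1 and 2, and 1619 and 1597 in COL replicates 1 and 2. Other genes that define mature oligodendrocytes were present. The 5 markers Ermn, Hapln2, Gjb1, Ugt8a and Tspan2 summed to 1821 and 1817 CPM in NS and to 1483 and 1696 CPM in COL, lower in COL. Markers of other types remained in the same sums. All 5 neuronal markers were found, at a summed level of 1237 and 1086 CPM in NS and 1817 and 1552 CPM in COL, against 7780 to 8693 CPM in neurons. All 5 astrocyte markers summed to 55.1 and 47.1 CPM in NS and to 12.7 and 27.4 CPM in COL, lower in COL, and their part in the changes in these sums was not tested. All 6 microglial markers summed to 92.0 and 127 CPM in NS and to 105.9 and 176 CPM in COL. The median oligodendrocyte held 3194 and 2951 UMIs in NS and 5263 and 5957 in COL, so depth per nucleus differed between the groups. COL replicate 1 stood apart in its mitochondrial RNA, whose median share of an oligodendrocyte's UMIs was 0.0963%, against 0.305% and 0.169% in NS and 0.299% in COL replicate 2. Each pair of libraries shared between 8 and 31 barcodes.

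In oligodendrocytes, 2 of the 9 genes rose in COL (Mobp and Cldn11), 1 fell (Opalin) and 6 did not pass the test. Over the 17353 genes tested, 10.2% were called higher and 12.5% lower. The median log2 fold change was -0.28 over the 9 genes and 0.0036 over all genes tested. The CPM of the groups did not overlap for 6 of the 9 genes, while 68.2% of all genes tested did not overlap. As a sum, the 9 genes took 8767 and 8111 CPM in NS and 7570 and 9111 CPM in COL, and the groups overlapped.

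The sequences ahead of the 3 genes that passed the test are shown because these genes moved in different directions. They run 5′ to 3′ on the gene's strand in RefSeq (GRCm38.p6) and end just before the annotated gene. Capitals mark ACAAAG or its reverse complement CTTTGT, the core letters bound by SOX proteins such as Sox10. The stretches are chr9:120149492-120149706 for Mobp (+ strand, 215 bases), chr3:31149670-31149919 for Cldn11 (+ strand, 250 bases) and chr19:41077114-41077363 for Opalin (− strand, 250 bases).
Mobp: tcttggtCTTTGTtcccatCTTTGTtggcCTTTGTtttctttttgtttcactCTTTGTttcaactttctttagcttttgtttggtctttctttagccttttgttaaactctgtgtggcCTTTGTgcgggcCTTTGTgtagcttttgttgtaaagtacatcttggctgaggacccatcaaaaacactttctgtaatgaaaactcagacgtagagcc
Cldn11: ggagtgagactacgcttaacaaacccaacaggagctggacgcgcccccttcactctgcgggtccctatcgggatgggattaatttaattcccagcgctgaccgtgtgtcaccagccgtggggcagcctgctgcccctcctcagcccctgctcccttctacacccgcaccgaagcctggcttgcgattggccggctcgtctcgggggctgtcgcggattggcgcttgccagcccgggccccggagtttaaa
Opalin: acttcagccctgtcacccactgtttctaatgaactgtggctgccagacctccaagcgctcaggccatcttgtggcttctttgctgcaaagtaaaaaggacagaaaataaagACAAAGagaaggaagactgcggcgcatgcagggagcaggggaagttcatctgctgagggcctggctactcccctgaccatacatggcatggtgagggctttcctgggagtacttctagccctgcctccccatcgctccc
The SOX letters occurred 6 times ahead of Mobp, all on the opposite strand, between 243 and 115 bases before the RefSeq start. They occurred 1 time ahead of Opalin and were not found in the window of Cldn11. Among the genes that did not pass the test, they occurred 1 time ahead of Cnp and 1 time ahead of Mag, and were not found ahead of Mal or Mog. Of 32851 promoters of 250 bases, 16.5% held these letters at least once, and Mobp's was the only 1 with 6 matches. The letters CTGGCAC or CTGGTAC, which Myrf binds, were searched on both strands and did not overlap the SOX letters. They were in none of the 3 windows shown, occurred ahead of Mag, Cnp and Mog, and were held by 5.93% of promoters. Mag has more than 1 entry, and the entry at chr7:30914322-30914571 held neither set of letters. RefSeq entries matched 7 of the 9 genes. A match is a run of letters and was not tested as a binding site.

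Among the compact myelin genes, Mobp rose. Its level was 887 and 832.5 CPM in NS replicates 1 and 2, and 1645 and 1383 CPM in COL replicates 1 and 2. Both COL libraries lay above both NS libraries. The change was 0.90 ± 0.19 on the log2 scale (SE, n = 2 libraries per group, edgeR quasi-likelihood test, adjusted p = 0.0139). Mobp lies on the + strand of chr9:120149707-120181484 (mm10) and the annotation marks its locus as overlapping another, so its count is uncertain to that extent.

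The rise of Mobp was also described nucleus by nucleus, from the same UMIs of the same libraries. The intervals on these shares cover counting error over nuclei only and leave out the spread between pools. When every nucleus was thinned to 1000 UMIs, 53.3% of oligodendrocytes (95% CI 51.2 to 55.5) of NS replicate 1 and 54.9% (53.2 to 56.5) of replicate 2 held a Mobp UMI. In COL the shares were 73.5% (71.3 to 75.6) and 69.8% (67.5 to 72.1). Thinning left out 5 nuclei of each NS library and none of COL. Without thinning the shares were 87.0%, 85.4%, 98.4% and 98.4%. Microglia, which do not make myelin, gave 10.9%, 7.81%, 8.0% and 10.3% after thinning, with median depths of 2242, 1997, 4144 and 4289 UMIs. Per nucleus and unthinned, oligodendrocytes held 3.15 and 2.71 Mobp UMIs in NS and 9.68 and 9.21 in COL.

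Mbp did not pass the test. It took 3677 and 3428 CPM in NS and 3297 and 3818 CPM in COL, and the groups overlapped. Its log2 difference was 0.08, with a 95% interval from -0.36 to 0.52 (adjusted p = 0.787). Its count per nucleus, which follows the depth of a library, was 13.1 and 11.2 UMIs in NS and 19.4 and 25.4 in COL.

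Mal did not pass the test either, and its COL libraries lay far apart. It was at 663 and 614 CPM in NS, 275 CPM in COL replicate 1 and 592 CPM in COL replicate 2, which lay 2.15 times above replicate 1. The log2 difference of -0.49 did not pass the test (adjusted p = 0.233). Without COL replicate 2 it was -1.12 and passed the test, and without COL replicate 1 it was -0.08. COL replicate 1 also had the lowest mitochondrial share, whose part in the result was not tested.

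Opalin fell. It was at 441 and 337.5 CPM in NS and at 191 and 189 CPM in COL, so both COL libraries lay below both NS libraries. The change was -0.94 ± 0.17 on the log2 scale (SE, n = 2 per group, edgeR, adjusted p = 0.00879). The share of thinned oligodendrocytes with an Opalin UMI was 34.2% and 28.2% in NS and 15.6% and 17.0% in COL, against 4.18%, 8.71%, 1.75% and 3.82% of microglia in the same order. The count per nucleus was 1.57 and 1.10 in NS and 1.13 and 1.26 in COL and overlapped between the groups. That count follows the depth of a library, and the median oligodendrocyte held 3194 and 2951 UMIs in NS and 5263 and 5957 in COL. The fall was thus measured in the share of RNA. The count per nucleus cannot show whether Opalin RNA per nucleus fell. Opalin lies on the − strand of chr19:41061710-41077113 (mm10).

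Cldn11 rose. Its level was 360 and 337 CPM in NS and 489 and 659 CPM in COL, without overlap. The log2 change was 0.79 ± 0.17 (SE, n = 2 per group, edgeR, adjusted p = 0.0159). Thinned oligodendrocytes held a Cldn11 UMI in 28.6% and 28.2% of cases in NS and in 36.7% and 45.6% in COL. In microglia the shares were 11.2%, 13.8%, 7.75% and 17.6%. Cldn11 lies on the + strand of chr3:31149920-31164324 (mm10).

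**Figure D1:**
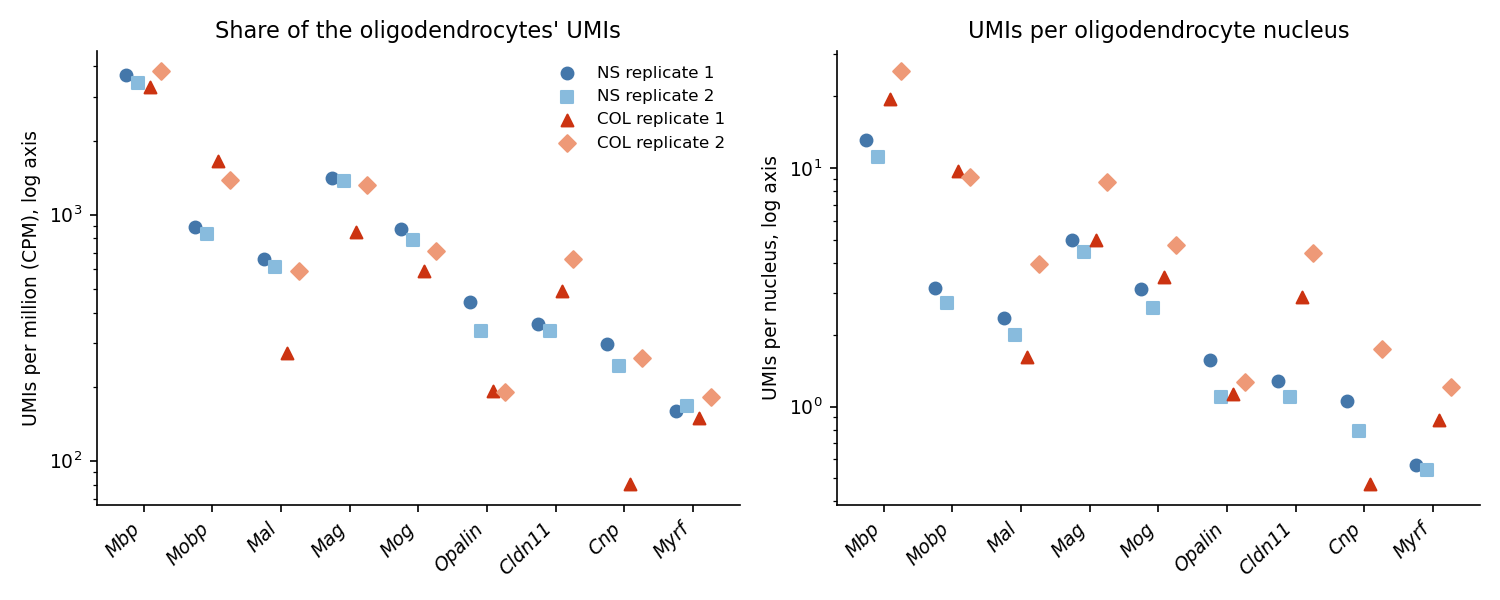
Levels of the 9 myelin genes in oligodendrocytes, each point a library, as CPM (left, log axis) and as UMIs per nucleus (right, log axis). On the left Mobp lies at 1645 and 1383 CPM in COL, above 887 and 832.5 CPM in NS, Opalin at 191 and 189 CPM lies below 441 and 337.5 CPM, and Cnp of COL replicate 1 stands alone at 80.4 CPM.

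Mag and Mog, the other surface genes, did not pass the test. Mag was at 1406 and 1363 CPM in NS and at 850 and 1314 CPM in COL, a log2 difference of -0.29 (95% CI -0.76 to 0.19, adjusted p = 0.347). Mog was at 874.5 and 792 CPM in NS and at 592.5 and 711 CPM in COL, a difference of -0.28 (95% CI -0.65 to 0.10, adjusted p = 0.249). In both genes COL replicate 1 was the lowest library. Without COL replicate 2 both passed the test, at -0.61 and -0.39.

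Cnp varied most between the COL libraries. It was at 298 and 242 CPM in NS, 80.4 CPM in COL replicate 1 and 262.5 CPM in COL replicate 2, which is 3.27 times as high as replicate 1. The log2 difference of -0.59 had an interval from -1.52 to 0.33 and did not pass the test (adjusted p = 0.310). Without COL replicate 2 it was -1.65 and passed, and without COL replicate 1 it was -0.01. Myrf, the regulator, was at 159 and 166 CPM in NS and 150 and 181 CPM in COL, with a log2 difference of 0.10 (95% CI -0.26 to 0.46, adjusted p = 0.679).

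The calls depended on having both NS libraries. Without NS replicate 1 none of the 9 genes passed edgeR's test (adjusted p 0.200 for Mobp, 0.0763 for Opalin and 0.165 for Cldn11), and without NS replicate 2 Opalin alone did. The change itself stayed at 0.89 to 0.91 for Mobp, where a lone NS library was taken to vary like the COL libraries. Opalin was at -0.802 without NS replicate 1 and at -1.075 without NS replicate 2. Leaving out COL replicate 1 or 2 gave 0.710 and 1.033 for Mobp, and 0.942 and 0.584 for Cldn11. Under every other alternative with a test, Mobp, Opalin and Cldn11 each passed the test.

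The ratio of Mobp to Opalin UMIs does not depend on how libraries are scaled. In oligodendrocytes there were 2.01 and 2.47 Mobp UMIs for each Opalin UMI in NS, and 8.60 and 7.30 in COL. The ratio was 1.72 and 1.56 in neurons of NS and 6.43 and 5.28 in neurons of COL. In astrocytes it was 1.38 and 1.25 against 3.05 and 5.61, and in microglia 2.06 and 0.964 against 4.87 and 3.65. In each of these 4 classes both COL libraries lay above both NS libraries. Mobp and Opalin had the highest and the lowest log2 change of the 9 genes in oligodendrocytes. The separation of their ratio there was therefore set by the choice of the pair. The other classes come from the same libraries and add no independent support. Some of their ratios rest on few Opalin UMIs, such as 19 and 28 in COL astrocytes and 30 in microglia of COL replicate 1.

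Other genes of the sheath moved in both directions in oligodendrocytes, and the counts are to be read against the 10.2% of all genes called higher and the 12.5% called lower. Of 18 other genes of the myelin membrane and of adhesion, 2 rose and 2 fell, with a median log2 fold change of -0.05. Nfasc, the cell adhesion molecule of the paranode and node, rose by 0.94 on the log2 scale (737 and 675 against 1456 and 1252 CPM after TMM scaling, adjusted p = 0.0102). Jam3, a junctional adhesion molecule, rose by 0.72 (adjusted p = 0.0208). Nfasc is made by neurons as well, and the neuronal markers above were higher in COL in these sums, whose part in the result was not tested. Omg, a glycoprotein of the oligodendrocyte surface, fell by 0.94 (adjusted p = 0.0436), and Gpr37, a receptor of oligodendrocytes, fell by 0.55 (adjusted p = 0.0441). Both falls were close to the threshold. The log2 change of Omg was -1.54 without COL replicate 2. Omg lost its call with doubled thresholds, with all 3 markers, after thinning and without the top 5% of nuclei by UMIs, and Gpr37 with DESeq2, with other markers and with all 3 markers. Without either NS library Nfasc, Jam3 and Gpr37 did not pass the test.

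None of the 10 enzymes of myelin lipids passed edgeR's test, with 1 at an unadjusted p below 0.05 and 0 called by DESeq2. Enpp6, among the 10, is a marker of the committed precursor gate described below. Nuclei that passed that gate were not taken as oligodendrocytes, so its level here is limited by that choice. Of 14 genes of the myelin cytoskeleton and cytoplasm, 3 fell and 0 rose. The counts in this paragraph are again to be read against 12.5% of all genes called lower and 10.2% called higher. Cryab, a small heat shock protein, fell by 1.19 (adjusted p = 0.0140), Ermn, an actin-binding protein, by 0.91 (adjusted p = 0.0250) and Tubb4a, a tubulin, by 0.72 (adjusted p = 0.0416). Tubb4a lost its call without either NS library, and Ermn and Sox10 without NS replicate 2. Of 11 regulators of the lineage, Sox10 and Sox8 fell and none rose. Gpr17, among the 11, is likewise a marker of the committed precursor gate. Sox10, a transcription factor that acts with Myrf, was at 241 and 305.5 CPM in NS and 109 and 187 CPM in COL after TMM scaling, a log2 change of -0.89 (adjusted p = 0.0378). Sox8 changed by -0.88 (adjusted p = 0.0140).

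Larger changes were found among 12 genes that mark oligodendrocyte subtypes or injury, of which 5 rose and 1 fell. The list was chosen with earlier results of these data known, so its counts are a description and give no independent support. Over all genes tested, 10.2% were called higher and 12.5% lower. The list also moved in other classes. In microglia 5 of its 11 tested genes rose and 1 fell, and in astrocytes 4 of 10 rose and 1 fell. In neurons edgeR called 0 of 12, and DESeq2 called 5 higher and 1 lower. Among all genes tested, 1765 of 12269 rose and 1692 fell in microglia, and 905 of 13756 rose and 1057 fell in astrocytes. In neurons edgeR called 2 of 23865 genes, and DESeq2 called 802 higher and 1744 lower. The part of RNA shared between classes was not tested. The values below are from oligodendrocytes. C4b, a complement component, rose from 1.25 and 2.48 CPM to 129 and 175 CPM after TMM scaling (log2 change 6.28, adjusted p = 0.000118). Serpina3n, a serine protease inhibitor, rose from 3.86 and 2.31 CPM to 84.0 and 134 CPM (5.18, adjusted p = 0.000429). Socs3, an inhibitor of cytokine signalling, had no UMI in the oligodendrocytes of either NS library and 88 and 109 UMIs in COL. Against the 3 counts that a count of 0 allows over the NS group, it was at least 61.8-fold higher. Cd74, the invariant chain of antigen presentation, rose by 4.62 (adjusted p = 0.00372), and it is abundant in microglia and macrophages, whose 5 macrophage markers summed to 2.12 and 3.94 CPM in NS and 17.4 and 33.8 CPM in COL in these nuclei. The part of such RNA in the result was not tested. The other gene that rose was Cdkn1a, a cell cycle inhibitor (log2 change 2.37, adjusted p = 0.00502), and the gene that fell was Ptgds, a prostaglandin D synthase (1021 and 1874 against 142 and 279 CPM, log2 change -2.78, adjusted p = 0.00447). Both were named after their values were seen. Single libraries moved some of these sizes by more than 1.5 times without ending a call. The log2 change of Cd74 was 3.55 without COL replicate 2 and 5.40 without NS replicate 2, that of C4b was 6.91 without NS replicate 2, and that of Ptgds was -3.38 without COL replicate 2.

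The 9 genes were also counted in nuclei of other cell types, which do not make myelin. Droplets take up free RNA released from broken cells, and the 9 genes are counted here as UMIs per nucleus rather than as CPM. That count also follows the depth of a library and differs between classes, so it does not measure uptake alone. Whether all these UMIs are free RNA was not tested. In microglia, the 9 genes together gave 2.83 and 3.24 UMIs per nucleus in NS and 2.52 and 5.59 in COL, against 31.2, 26.4, 44.6 and 60.7 in oligodendrocytes. COL replicate 1, the library with the lowest mitochondrial share, gave the lowest value in each of neurons, astrocytes and microglia. Over the 4 libraries, microglia held 9.06% ± 2.70, astrocytes 9.43% ± 2.94 and neurons 15.4% ± 4.66 (SD, n = 4) of the count found per oligodendrocyte.

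The amount differed from gene to gene. Cnp was the most widespread: microglia held 34.5% ± 8.70 and neurons 57.7% ± 13.7 (SD, n = 4) of the Cnp count per oligodendrocyte. Mal followed with 27.2% ± 9.84 in microglia and 34.7% ± 13.1 in neurons, and Cldn11 with 22.0% ± 7.18 and 31.4% ± 10.5. Mbp and Mobp were low at 4.61% ± 1.02 and 5.58% ± 1.23 in microglia. The genes that varied most between the COL libraries in oligodendrocytes, Cnp and Mal, were those with the highest relative counts outside oligodendrocytes. Whether these are connected was not tested.

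**Figure D2:**
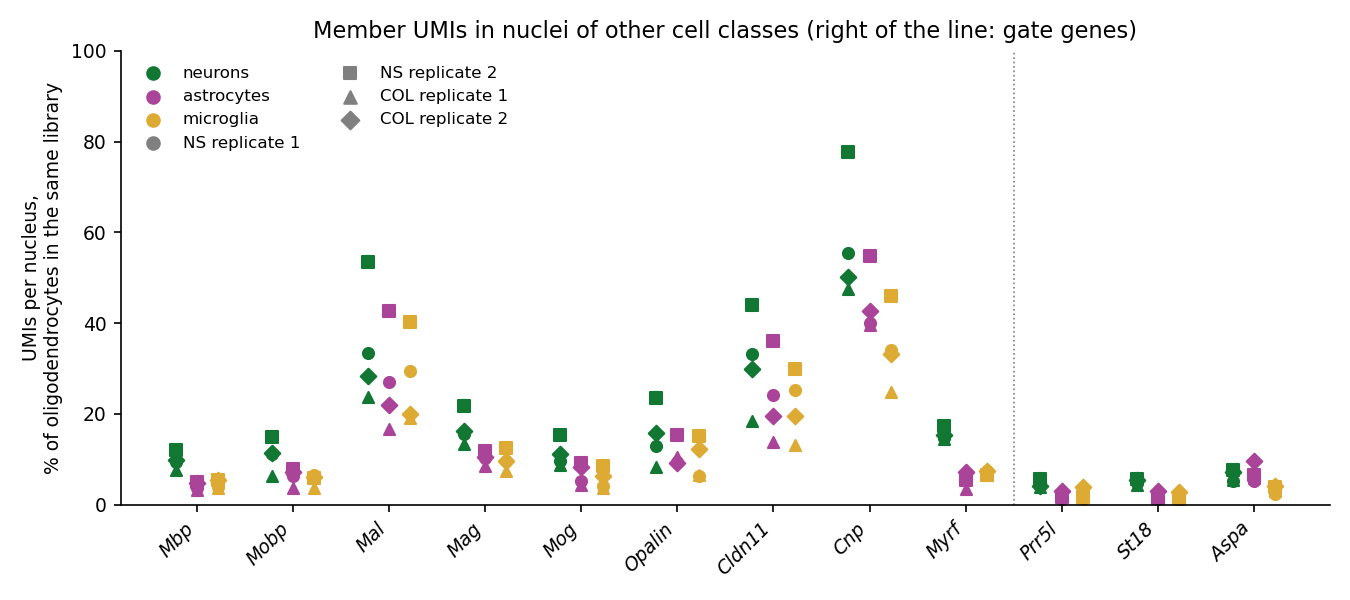
UMIs per nucleus of each myelin gene, and of the 3 genes used to choose oligodendrocytes, in neurons, astrocytes and microglia as a percentage of the count per oligodendrocyte of the same library (vertical axis, percent), with colours for classes and marker shapes for libraries. Cnp, Mal and Cldn11 reach the highest values, with a mean of 57.7% for Cnp in neurons. Nuclei that passed the gate on Prr5l, St18 and Aspa were left out of the other classes, so the low values of these 3 genes are set by that choice.

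The make-up of the myelin RNA differed between oligodendrocytes and other types. Counted as UMIs and not per length, Mbp took 42.1% ± 0.223 of the UMIs of the 9 genes in NS and 42.7% ± 1.16 in COL oligodendrocytes, and 18.2% ± 0.859 in NS and 26.7% ± 2.11 in COL microglia (SD, n = 2). Mal took 7.56% ± 0.00615 in NS and 5.06% ± 2.03 in COL oligodendrocytes, and 24.7% ± 0.152 in NS and 13.2% ± 1.30 in COL microglia. Cnp took 3.19% ± 0.298 and 1.97% ± 1.29 in oligodendrocytes, and 11.9% ± 1.12 and 7.52% ± 4.04 in microglia. In microglia the shares of all 9 genes except Mog did not overlap between NS and COL, so this was not particular to Mbp and Mal. Shares of a common total move together and are not separate results. In every library Mbp's share was lower, and Mal's and Cnp's higher, in microglia than in oligodendrocytes. Mobp's share in oligodendrocytes was 10.1% and 10.3% in NS and 21.7% and 15.2% in COL, while in microglia it was 7.21% and 4.98% in NS and 14.5% and 10.1% in COL.

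**Figure D3:**
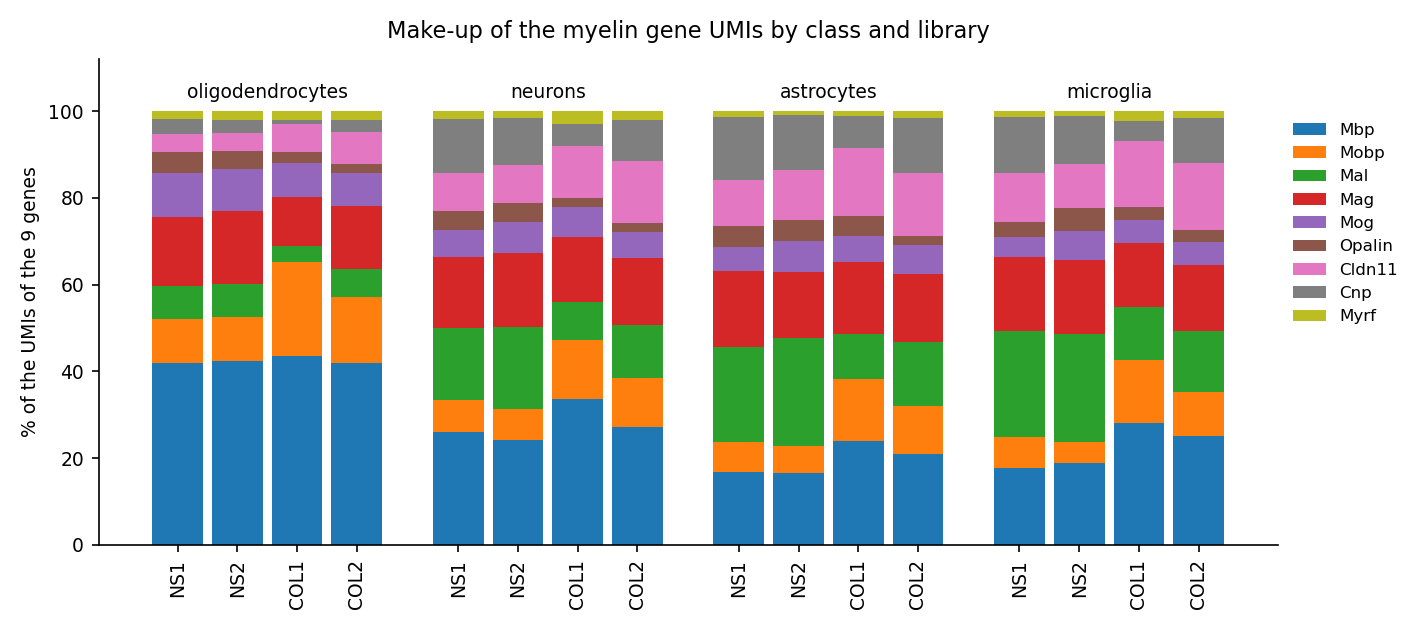
Share of each gene in the UMIs of the 9 myelin genes (vertical axis, percent) for oligodendrocytes, neurons, astrocytes and microglia, each bar a library. Mbp takes 42.1% (NS) and 42.7% (COL) in oligodendrocytes and 18.2% and 26.7% in microglia, Mal and Cnp widen outside oligodendrocytes, and Mobp widens in COL in all 4 classes.

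Free RNA can also be in the droplets of oligodendrocytes, and taking it off was an alternative chosen after seeing the data. When the UMIs per nucleus found in microglia of the same library were subtracted, Mobp was at 830 and 783 CPM in NS and 1583 and 1298 CPM in COL, 1.79 times as high. Opalin was at 413 and 286 CPM in NS and 179 and 166 CPM in COL, 0.493 times as high. For Cldn11 the values were 270 and 237 CPM against 424 and 530 CPM, a ratio of 1.89. With neurons in place of microglia the ratios were 1.85, 0.521 and 2.01. For Cnp the log2 difference moved from -0.65 to -0.47 with microglia and to -0.11 with neurons, and for Mal from -0.56 to -0.26 and -0.20. These are values without a test.

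In neurons none of the 9 genes passed edgeR's test, where 0.00838% of 23865 genes were called. Mobp and Opalin had unadjusted p below 0.05, and DESeq2 called Opalin alone. Opalin was at 18.1 and 24.8 CPM in NS and 5.50 and 12.1 CPM in COL neurons, a log2 difference of -1.16 (adjusted p = 0.116). Mobp was at 31.1 and 38.6 CPM in NS and 35.4 and 64.1 CPM in COL, a difference of 0.65 (adjusted p = 0.165). The values in neurons moved with the COL library left out. Without COL replicate 2 the log2 change was -1.742 for Mal, -0.855 for Mag, -1.756 for Opalin and -1.872 for Cnp. In the same fit it was 0.230 for Mobp and -0.234 for Cldn11. Without COL replicate 1 it was -0.295 for Mal, 0.145 for Mag, -0.778 for Opalin and -0.005 for Cnp. For Mobp it was then 0.925 and for Cldn11 0.968.

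The change in oligodendrocytes was then compared with that in neurons directly. None of the 9 genes differed by edgeR's interaction test, with 0 at an unadjusted p below 0.05 and 0 called by DESeq2, while 7.7% of 23131 genes were called. The difference of the log2 changes was 0.23 for Mobp (95% CI -0.22 to 0.69), 0.21 for Opalin (-0.32 to 0.74) and 0.33 for Cldn11 (-0.07 to 0.74). These intervals do not show that the changes were equal. The comparisons in the 4 classes share the same libraries and are not independent.

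In astrocytes Opalin fell by 1.25 (36.1 and 47.6 against 18.3 and 15.8 CPM, adjusted p = 0.0185), with 7.68% of 13756 genes called lower. Mal had a log2 difference of -1.21 and did not pass the test (adjusted p = 0.0552). It passed without TMM factors, without the filter on low counts, with doubled thresholds, with all 3 markers, without the top 5% of nuclei by UMIs and after thinning, where it was -1.66, but not with DESeq2. Without COL replicate 2 it was -2.19 and passed, as it did without either NS library, and without COL replicate 1 it was -0.71 and did not pass. DESeq2 did not call Opalin, nor did edgeR without NS replicate 2 or without COL replicate 2, and after thinning to 1000 UMIs the value of Opalin was -0.25 and did not pass the test. The count of Opalin per astrocyte nucleus was 0.146 and 0.169 UMIs in NS and 0.119 and 0.117 in COL.

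In microglia 3 of the 9 genes were called lower, against 13.8% of 12269 genes. Mal fell by 1.46 (adjusted p = 0.00228), Opalin by 1.22 (adjusted p = 0.0207) and Mag by 0.78 (adjusted p = 0.0456), and DESeq2 called none of these. The call of Opalin was also lost after thinning (log2 change -1.21) and without NS replicate 2, and that of Mag without TMM factors, without the top 5% of nuclei by UMIs, without NS replicate 2 and without COL replicate 1. Without COL replicate 2 the log2 changes were -2.26 for Mal, -1.82 for Opalin and -1.46 for Mag. Mal was at 292 and 377 CPM in NS and at 66.8 and 166 CPM in COL. Counted per nucleus, Mal gave 0.697 and 0.803 UMIs in NS and 0.309 and 0.790 in COL and overlapped between the groups, as did Opalin and Mag. The median microglial nucleus held 2242 and 1997 UMIs in NS and 4144 and 4289 in COL. With every nucleus thinned to 1000 UMIs, Mal was at -1.29 and Mag at -0.76 on the log2 scale, and both passed the test. Thinning makes the depth of nuclei equal but leaves a gene's share of the UMIs as it was.

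**Figure D4:**
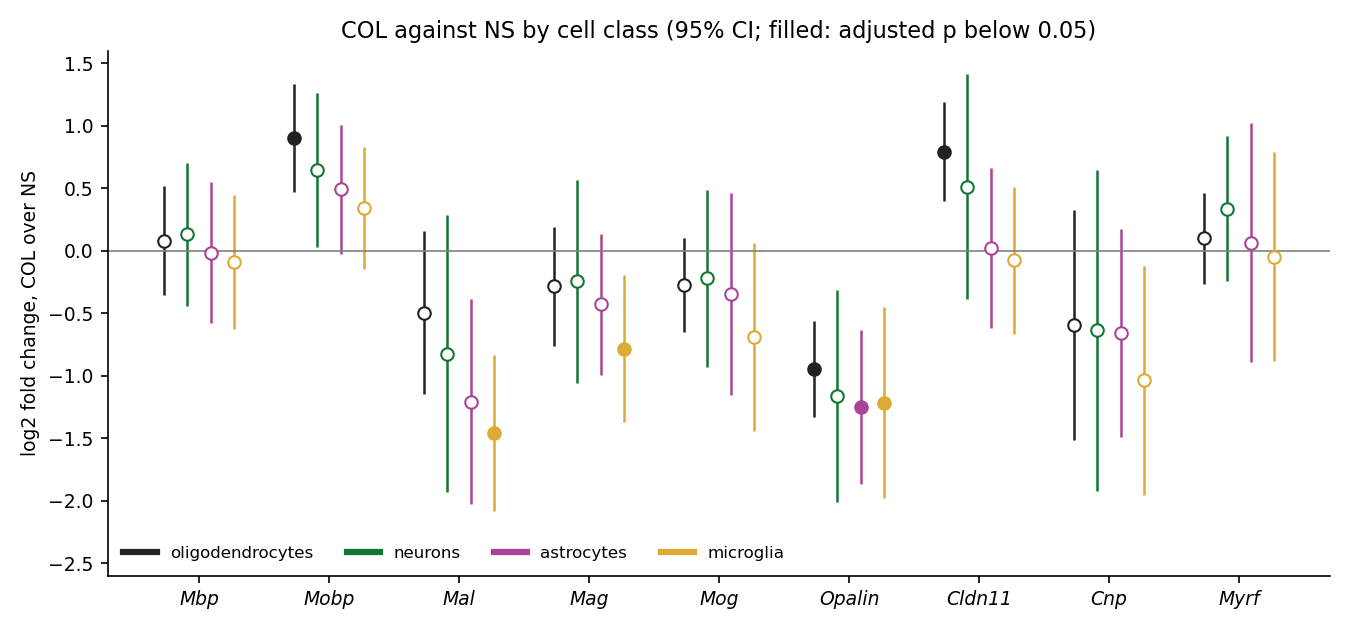
Log2 fold change of each myelin gene, COL over NS (vertical axis), in oligodendrocytes, neurons, astrocytes and microglia, with 95% confidence intervals from edgeR (n = 2 libraries per group). Filled points passed an adjusted p of 0.05: Mobp at 0.90, Cldn11 at 0.79 and Opalin at -0.94 in oligodendrocytes, and the falls of Opalin in astrocytes and of Mal, Mag and Opalin in microglia.

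The 9 genes differed in their levels over the classes of the oligodendrocyte lineage. The classes were oligodendrocyte precursors (OPC, 927 nuclei by Pdgfra, Cspg4 and Vcan), committed precursors (121 nuclei by Gpr17, Bmp4, Neu4 and Enpp6), nuclei that passed both the committed precursor and the oligodendrocyte gate (49 nuclei), and oligodendrocytes. Mbp was at 98.8 to 197 CPM in OPC and already at 1141 to 2404 CPM in committed precursors, against 3297 to 3818 CPM in oligodendrocytes. Myrf likewise was at 10.2 to 29.6 CPM in OPC, 73.1 to 150 CPM in committed precursors and 150 to 181 CPM in oligodendrocytes.

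Mobp was low in committed precursors, and Opalin lay below its level in oligodendrocytes there. Nuclei that also passed the oligodendrocyte gate were left out of this class, where Prr5l was at 3.85 to 29.4 CPM. Levels of genes of later stages in it are therefore limited by that choice. Mobp was at 43.5 to 80.3 CPM in OPC and 23.1 to 94.8 CPM in committed precursors, and reached 832.5 CPM or more only in oligodendrocytes, with 179 to 607 CPM in nuclei of both gates. Committed precursors held 6.29% ± 3.40 of the Mobp count per oligodendrocyte (SD, n = 4), against 5.58% ± 1.23 in microglia, and 84.1% ± 31.4 of the Mbp count. Opalin was at 7.06 to 36.1 CPM in OPC and at 19.6 to 92.2 CPM in committed precursors, above its OPC level in each library. Committed precursors held 23.8% ± 13.7 of the Opalin count per oligodendrocyte, against 10.1% ± 4.36 in microglia (SD, n = 4). Mog in committed precursors was at 58.8 to 177 CPM. Committed precursors and nuclei of both gates numbered between 5 and 42 per library, and no test between NS and COL was made in them.

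**Figure D5:**
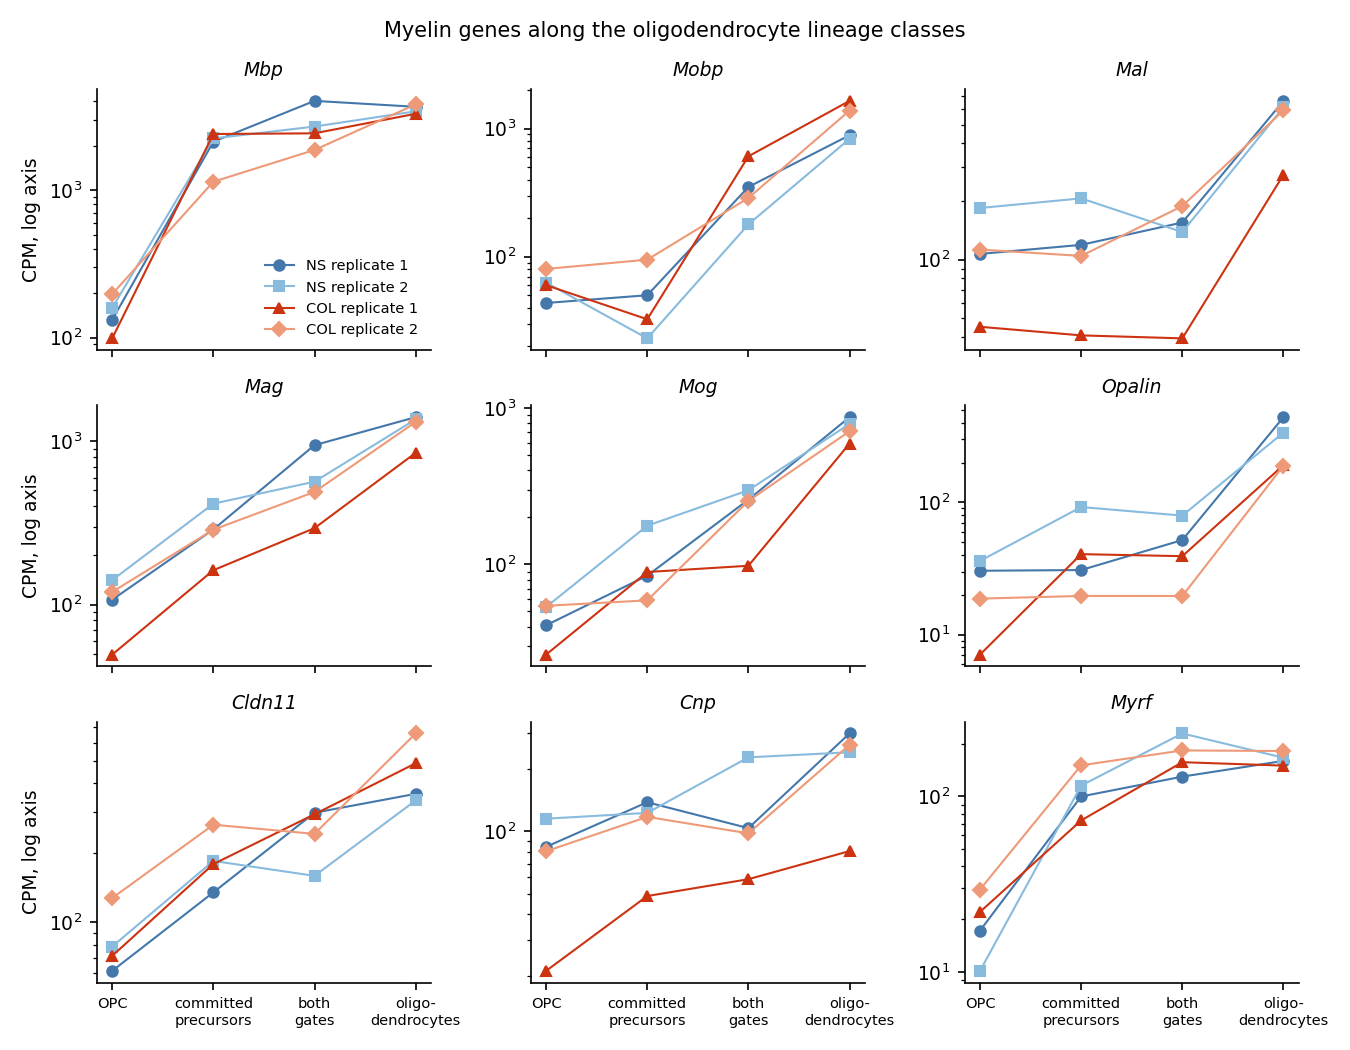
CPM of each myelin gene (log axis) in OPC, committed precursors, nuclei of both gates and oligodendrocytes, each line a library. Mbp and Myrf lie above their OPC level in committed precursors in all 4 libraries, at 1141 to 2404 CPM for Mbp. Mag, Mog, Opalin, Cldn11 and Cnp do so as well. Mobp, at 23.1 to 94.8 CPM there, and Mal do not in every library.

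Among the genes whose pattern over classes was most like that of the 9 were Kctd13, Tspan2, Tubb4a, Adamts4, Rtn4, Tmem88b and Sept7. Likeness was Pearson's r between a gene's log2(CPM + 1) and the mean standardized value of the 9 genes over 28 sums from 9 classes. It ran from 0.937 for Kctd13 to 0.887 for Sept7 among these genes. The 9 genes themselves had values between 0.750 (Myrf) and 0.991 (Mag). Sums of a library share its free RNA, so these values are a description.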

How the data were processed

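Single-nucleus RNA of mouse thalamus was analysed in 2 NS and 2 COL libraries. The values were raw counts of UMIs, as the authors deposited them, made with 10x Genomics chemistry, Cell Ranger 1.2.0 and mm10 according to the submitters' processing notes. Deposited totals ran from 68746459 to 77557870 UMIs. No step against doublets or free RNA is given in the sources used here. No doublet caller was run, and the main tests were made without a correction for free RNA, which was subtracted only in an alternative added after seeing the data.

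Nuclei needed over 50 genes and under 5% mitochondrial UMIs. A class required 2 of its markers and a minimum of marker UMIs per 10000 (16 for oligodendrocytes, 40 for neurons, 6 for astrocytes, 12 for microglia), set on the distribution of marker sums. Nuclei in several classes were not tested. Sums by library and class were tested with edgeR 4.0.16 (quasi-likelihood, TMM, filterByExpr, Benjamini-Hochberg over all genes tested, threshold 0.05) in R 4.3.3, and the change in oligodendrocytes against that in neurons by an interaction with the library as a block. DESeq2 1.42.0 was an alternative. Further alternatives were no TMM, no filter, a replicate block, leaving out each library, doubled or halved thresholds, other or all 3 oligodendrocyte markers, 500 genes at least, thinning to 1000 UMIs, and leaving out the top 5% by UMIs. The code was tested on simulated data. Intervals on shares are Clopper-Pearson at 95% and cover counting error only.

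The 9 genes, the lists and the gates were chosen with earlier results of these data known. All 9 were named, with up to 4 called genes of each list by size of change, and the 8 genes most like the 9 in pattern among those with at least 10 CPM in oligodendrocytes, of which 1 is not reported here. Promoters came from RefSeq (GRCm38.p6).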

Additional observations from a re-analysis of the deposited data

How the results depend on the processing

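In oligodendrocytes, Mobp, Opalin and Cldn11 kept direction and call under each alternative that left all 4 libraries in. The calls among the 9 genes numbered 5 without the filter on low counts, where Mal and Cnp were added, and ran from 0 to 7 when a library was left out, and all genes called from 2316 to 7267. Without NS replicate 1 or 2 the adjusted p of edgeR was 0.200 and 0.193 for Mobp and 0.165 and 0.152 for Cldn11. Mbp ran from -0.010 to 0.129 and Myrf from -0.026 to 0.188 on the log2 scale when a library was left out. Of 15 called list genes, 7 of 165 values under other settings, all of Omg and Gpr37, and 10 of 60 with a library left out lost their call, and 0 reversed. The causes were not tested.

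The replicate numbers are not shown to pair the libraries: deviations of same-numbered libraries correlated at 0.156 in oligodendrocytes, 0.00207 in neurons, 0.219 in astrocytes and 0.0927 in microglia, with 2 pairs. With the replicate block, 4 of the 9 genes were called in oligodendrocytes (Cnp, at -0.79, beside Mobp, Opalin and Cldn11), 1 in neurons, 3 in astrocytes (Mal, at -1.34, among them) and 5 in microglia, and all genes called were 1443 in neurons and 3054 in astrocytes. The totals under the block in oligodendrocytes and microglia are not given here. Without the block they were 3932 of 17353 genes in oligodendrocytes and 3457 of 12269 in microglia. Cldn11 in astrocytes was -0.044 under the block.

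In neurons, 2 genes were called in all, against 2546 by DESeq2, 4216 without the filter, 805 after thinning, and 0 with doubled thresholds or without the top 5% by UMIs (0 to 6092 with a library left out). Of the 9 genes, DESeq2 called 1 and edgeR without the filter 3 (0 to 4 with a library left out). Mbp was -0.004 without TMM. With a library left out, Mbp ran from -0.257 to 0.391, Mag from -0.855 to 0.145, Mog from -0.638 to 0.131 and Cldn11 from -0.234 to 0.968.

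In astrocytes, 1962 genes were called, against 1024 by DESeq2, 2977 without the filter and 526 after thinning (918 to 1728 with a library left out). Of the 9 genes, DESeq2 called 0, edgeR 3 without the filter, and 2 each without TMM, with doubled thresholds, with all 3 markers and without the top 5% (1 to 3 with a library left out). Cldn11 was -0.030 without TMM, -0.018 without the filter and -0.057 with halved thresholds. Mbp was 0.237 with doubled and 0.051 with halved thresholds, 0.071 with other markers and 0.022 without the top 5%. With a library left out, Mbp ran from -0.494 to 0.302, Mog from -1.125 to 0.129, Cldn11 from -0.531 to 0.375 and Myrf from -0.810 to 0.459.

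In microglia, 3457 genes were called, against 1739 by DESeq2 and 1813 after thinning (1996 to 3136 with a library left out). Of the 9 genes, DESeq2 called 0 (1 to 6 with a library left out). Without the filter Mbp was 0.003, Cldn11 0.016 and Myrf 0.046, and Myrf was 0.198 with doubled and 0.037 with halved thresholds and 0.035 with other markers. With a library left out, Mbp ran from -0.627 to 0.286, Cldn11 from -0.744 to 0.35 and Myrf from -0.395 to 0.182.

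For the difference between oligodendrocytes and neurons, 1780 genes were called, against 1002 by DESeq2, 1039 with doubled thresholds and 712 after thinning (1268 to 2517 with a library left out, and 0 to 3 of the 9 genes). Mbp was 0.014 by DESeq2 and 0.052 without TMM, Mag 0.034, 0.071 and, after thinning, 0.006, Mog 0.027 without TMM and Cnp -0.004 without the top 5%. With a library left out, Mbp ran from -0.286 to 0.158, Mobp from -0.123 to 0.711, Mal from -0.042 to 0.618, Mag from -0.325 to 0.147, Mog from -0.468 to 0.200, Opalin from -0.257 to 0.739 and Cnp from -0.222 to 0.246.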

Other observations

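Nuclei that passed both the oligodendrocyte and the neuron gate numbered 180 and 217 in NS and 143 and 120 in COL. Their summed count of the 9 myelin genes per nucleus was 104% ± 5.73 of that of oligodendrocytes (SD, n = 4), from 93.1% for Opalin to 114% for Cnp, at a median depth of 10451 to 19200 UMIs. Within oligodendrocytes, the 36 pairs of myelin genes had Pearson correlations over nuclei from -0.04 to 0.31 with a median of 0.05, a description of sparse counts from shared libraries.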
